A study of Mus musculus with 76 samples.

Results

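Leptin and insulin signalling was examined through 8 genes, *Jak2*, *Stat3*, *Socs3*, *Ptpn1*, *Ptpn2*, *Irs1*, *Irs2* and *Akt1*, taken by name from the 56980 genes of the deposited count table. All 8 were found in the table by their Ensembl identifiers. They were measured in 76 hypothalamic neurons by Patch-seq, a method that records the electrical activity of a neuron through a glass pipette and then sequences the RNA sucked up by it. The neurons came from male PomcCreERT2;tdTomato;Pomc-eGFP mice, which the methods of the study also list without the eGFP transgene. Tamoxifen was given on 5 days at 12 weeks of age. It made tdTomato a permanent mark of cells in which the *Pomc* promoter then drove the Cre recombinase. The paper describes this recombination as sub-maximal, with some neurons positive for Pomc but without the tracer. By contrast, eGFP reports the promoter at the time of recording. Traced neurons with eGFP were labelled Pomc+ and those without it Ghost. The mice were fed chow diet (CD) or high-fat diet (HFD) for 6 months, which gave 15 Ghost and 23 Pomc+ neurons on CD and 19 of each on HFD. The cells came from 5 mice on CD and 5 on HFD, in 3 independent experiments, but no mouse or experiment is given for any cell. Each of the 4 groups therefore counts as 1 sample, and no difference between groups could be tested.

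Leptin and insulin both act on *Pomc* neurons, where they signal energy stores. Leptin binds its receptor, which carries the kinase *Jak2*; *Jak2* phosphorylates the transcription factor *Stat3*, and *Stat3* drives *Pomc* and also *Socs3*, an inhibitor that closes the loop. The phosphatases encoded by *Ptpn1* (PTP1B) and *Ptpn2* (TCPTP) remove phosphate from *Jak2*, *Stat3* and the insulin receptor. The insulin receptor passes its signal to the docking proteins *Irs1* and *Irs2*, which recruit PI3-kinase and thereby activate the kinase *Akt1*. Transcript counts do not show phosphorylation, so the values below describe how much RNA of each component was captured and not how active the pathway was.

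Promoters are shown for 3 of the genes, the target of *Stat3* and both docking proteins, because the letters at their starts can be set beside the counts. Each line gives the 250 bases before a RefSeq transcription start on GRCm38.p6, 5′ to 3′ on the minus strand. The *Socs3* window lies at chr11:117969367-117969616, that of *Irs1* at chr1:82291440-82291689 and that of *Irs2* at chr8:11008930-11009179. Capitals mark a match to TTCNNNGAA, the palindrome that STAT factors can bind, in *Socs3* and to the E-box CACGTG in *Irs1* and *Irs2*.
Socs3: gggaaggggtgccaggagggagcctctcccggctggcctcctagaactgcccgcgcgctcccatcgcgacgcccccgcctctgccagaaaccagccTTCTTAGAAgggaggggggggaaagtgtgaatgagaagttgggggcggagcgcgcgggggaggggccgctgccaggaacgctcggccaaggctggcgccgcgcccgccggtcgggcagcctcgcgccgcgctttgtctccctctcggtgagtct
Irs1: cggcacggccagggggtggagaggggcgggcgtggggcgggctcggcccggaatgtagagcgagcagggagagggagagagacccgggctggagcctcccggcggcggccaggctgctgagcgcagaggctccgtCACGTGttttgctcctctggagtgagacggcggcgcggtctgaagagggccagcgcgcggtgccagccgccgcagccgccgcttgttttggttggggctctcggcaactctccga
Irs2: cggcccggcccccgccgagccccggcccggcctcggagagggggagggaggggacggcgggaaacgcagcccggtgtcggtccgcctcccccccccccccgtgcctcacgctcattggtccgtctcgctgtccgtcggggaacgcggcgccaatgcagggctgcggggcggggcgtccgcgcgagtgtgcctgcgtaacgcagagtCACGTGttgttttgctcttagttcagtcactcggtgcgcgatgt
The *Socs3* match, TTCTTAGAA, starts 154 bases before the RefSeq transcription start used here. This window lies inside the *Socs3* gene of the GENCODE M21 annotation, chr11:117966079-117970047. That annotation places the start of the gene further upstream, so the match is not upstream of it. The E-box starts 115 bases before the start of *Irs1* and 44 bases before that of *Irs2*. Both motifs read the same on either strand, and they do not overlap each other here. TTCNNNGAA is present in 7.02% and CACGTG in 6.02% of the 32851 RefSeq promoter windows of this length. Of the other members, *Jak2*, *Stat3*, *Ptpn1* and *Akt1* had windows too, *Akt1* with 2 alternative starts, and none of these held either motif. A match is a description of letters and was not tested as a binding site.

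The total of a cell lay between 4057 and 1452605 counts, with medians of 123528 in Ghost and 339691 in Pomc+ neurons on CD and of 333785 and 393797 on HFD. The SMART-Seq Single Cell kit gives reads along the whole transcript and no molecular identifiers, so a count is a read and not a molecule, and 1 amplified molecule can give many counts. Values are given in CPM, the count scaled to a total of 1000000 per cell. *Pomc* had a count in 14 of 15 Ghost and 22 of 23 Pomc+ neurons on CD and in 18 of 19 and 19 of 19 on HFD. Its mean was lower in Ghost neurons on CD, at 6296 against 11652 CPM, but not on HFD, at 3686 against 3414 CPM, so there the transcript did not follow the eGFP labels. At least 1 of 8 neuronal markers had a count in 75 of 76 cells. The summed CPM of 8 microglial markers was higher on HFD, with a median of 419.4 and a range of 0 to 11905 against 0.344 and 0 to 2254 on CD, and all 8 had a count there. The 8 astrocyte and 8 oligodendrocyte markers had medians of 117.7 and 240.4 CPM over all cells, with maxima of 2152 and 5758. Of 7 endothelial and mural markers 6 had a count, in 9 cells, and of 6 tanycyte and ependymal markers 5 had one, in 19 cells. *Rgs5* and *Rax* were at 0 in every cell. Cells with a count of *Akt1* had a median of 231.4 CPM of the microglial markers, against 0.344 CPM in cells without. The order was opposite for *Irs2*, with 37.5 against 344.8 CPM, and for *Stat3*, with 35.8 against 318 CPM. The part of these transcripts in the results below was not tested.

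The 8 genes fell into 3 tiers by how many cells held them. *Stat3* had a count in 42 of 76 cells (55.3%, 95% exact Clopper-Pearson interval 43.4% to 66.7%), *Irs2* in 40 and *Akt1* in 38. *Socs3* and *Ptpn1* had a count in 18 cells each (23.7%, 14.7% to 34.8%) and *Jak2* and *Ptpn2* in 15 each (19.7%, 11.5% to 30.5%). *Irs1* was counted in 2 cells (2.63%, 0.32% to 9.18%). These and the other intervals cover counting error only.

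Mean CPM divided by exon length, which allows genes to be set side by side, gave nearly the same order. It was 24 CPM per kilobase for *Akt1*, 13.5 for *Stat3* and 12.2 for *Irs2*, then 7.66 for *Ptpn2*, 6.08 for *Socs3*, 5.54 for *Ptpn1* and 4.50 for *Jak2*, and 0.076 for *Irs1*. The lengths are unions of GENCODE M21 exons on GRCm38, between 2891 bases for *Socs3* and 9527 for *Stat3*. A minimum of 5 counts in 3 cells was met by 12265 genes, and among these the mean CPM of *Stat3* exceeded that of 93.6% and that of *Akt1* that of 91.0%. *Irs2* exceeded 88.0%, *Ptpn1* 66.4%, *Jak2* 57.2% and *Socs3* 49.1%. *Irs1* did not reach that minimum, so 7 of the 8 members entered the ratios between groups.

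**Figure D1:**
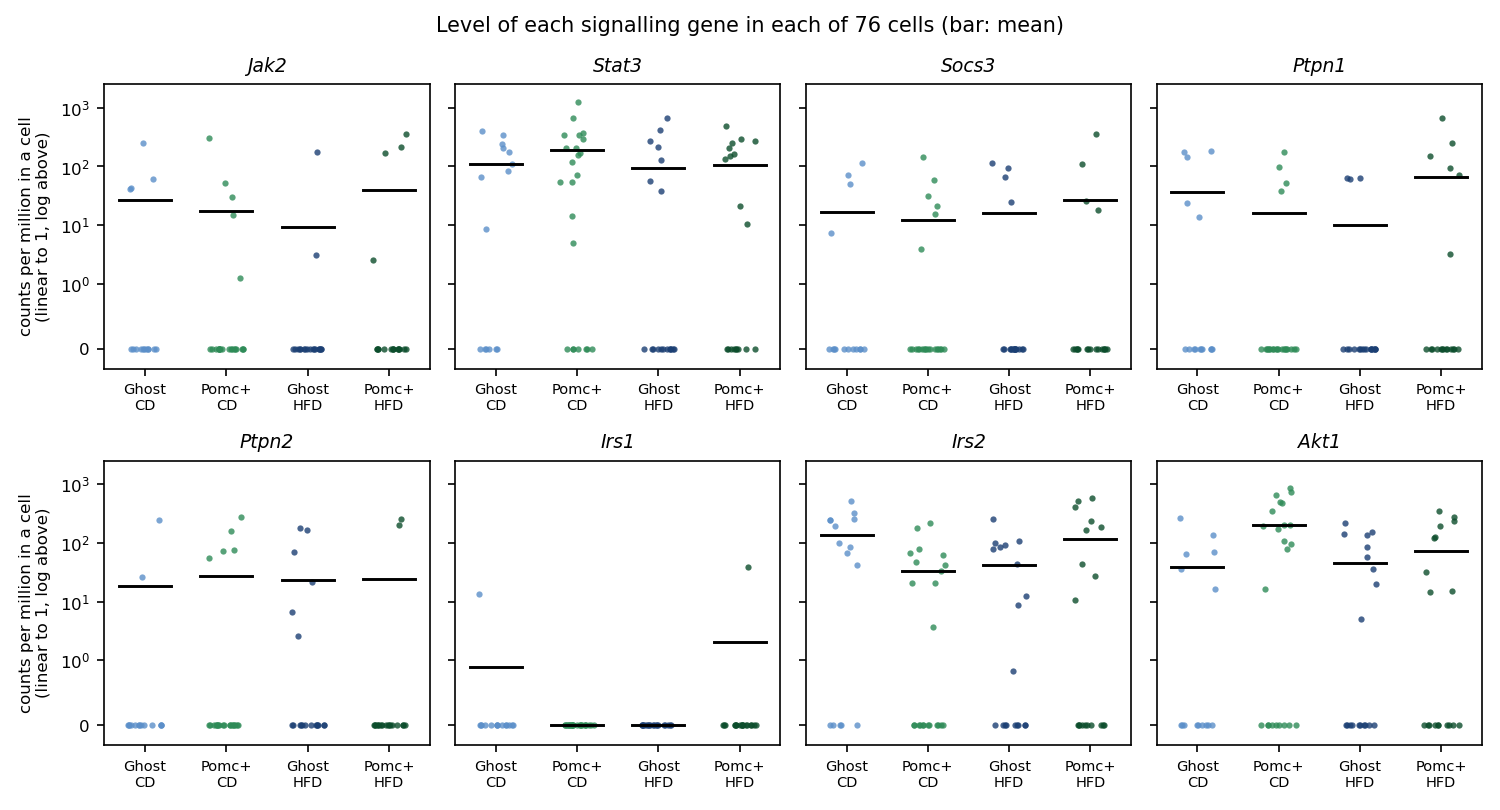
CPM of each of the 8 genes in each of 76 cells, by eGFP label and diet. Every point is 1 cell and the black bar is the mean of the group; the vertical axis is linear to 1 and logarithmic above. Most cells sit at 0 for *Jak2*, *Socs3*, *Ptpn1*, *Ptpn2* and *Irs1*, and *Stat3*, *Irs2* and *Akt1* are counted in 42, 40 and 38 cells.

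*Jak2*, the kinase bound to the leptin receptor, was carried by few cells with very unequal values. On CD, 4 Ghost neurons had 41.9, 42.9, 61.8 and 249.7 CPM, and 5 Pomc+ neurons had 1.25, 14.7, 30.6, 53.1 and 307.3 CPM. On HFD, 2 Ghost neurons had 3.06 and 174.5 CPM, and 4 Pomc+ neurons had 2.54, 169.9, 214.8 and 353.0 CPM. All remaining cells were at 0, and the groups overlapped. The mean on HFD was 9.35 CPM in Ghost and 38.97 CPM in Pomc+ neurons, a ratio of 0.24, and 127 of the 131 Ghost counts came from a single cell. On CD the means were 26.4 and 17.7 CPM, a ratio of 1.49 that was 0.592 without the highest Ghost neuron. The HFD to CD ratio was 2.20 in Pomc+ neurons and 1.22 without the highest of them on HFD, and in Ghost neurons it was 0.354 and became 0.892 without the highest on CD.

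*Stat3*, the transcription factor of the leptin receptor, was counted in a larger part of the cells than any other member. It had a count in 9 of 15 Ghost neurons on CD (60%, 32.3% to 83.7%) and in 16 of 23 Pomc+ neurons (69.6%, 47.1% to 86.8%). On HFD it had one in 7 of 19 Ghost (36.8%, 16.3% to 61.6%) and 10 of 19 Pomc+ neurons (52.6%, 28.9% to 75.6%). The share was therefore lower in Ghost neurons on each diet and lower on HFD within each label, with intervals that overlapped throughout.

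The lowest value of *Stat3* was 0 in each group. The median and highest were 65.9 and 405.7 CPM in Ghost and 72.5 and 1247 CPM in Pomc+ neurons on CD, and 0 and 665.2 CPM in Ghost and 10.4 and 488.8 CPM in Pomc+ neurons on HFD. Mean levels were 109.9 and 188.8 CPM on CD and 94.6 and 105.2 CPM on HFD. The Ghost to Pomc+ ratios were 0.582 and 0.899, within 2-fold in CPM. On CD the ratio was past 2-fold in the deposited normalized counts, at 0.425, and in summed counts over summed totals, at 0.47, whereas without the highest Pomc+ neuron it was 0.781 in CPM. On HFD it was 0.697 in normalized counts and 1.77 in summed counts. Among cells with a count, the 4 medians lay between 176.3 and 218.1 CPM.

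*Socs3*, the inhibitor that *Stat3* induces, gave the most even shares. It was counted in 4 of 15 Ghost and 6 of 23 Pomc+ neurons on CD and in 4 of 19 and 4 of 19 on HFD. Ghost neurons on CD with a count had 7.36, 50.7, 72.2 and 117.0 CPM, and those on HFD had 25.3, 64.9, 95.7 and 116.9 CPM. Pomc+ neurons on CD ranged from 3.94 to 148.0 CPM among cells with a count, and those on HFD had 18.3, 26.1, 110.5 and 353.6 CPM. The groups overlapped. Mean CPM was 16.5 in Ghost and 12.1 in Pomc+ neurons on CD and 15.9 and 26.8 on HFD, ratios of 1.36 and 0.595. Leaving out 1 cell turned both, to 0.77 on CD without the highest Ghost neuron and to 1.85 on HFD without the highest Pomc+ neuron. The HFD to CD ratio in Pomc+ neurons was 2.21, and without the single neuron at 353.6 CPM it was 0.712, on the other side of 1.

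Most cells with *Socs3* or *Jak2* also held *Stat3*. Of the 18 cells with a count of *Socs3*, 13 also held *Stat3* (72.2%), and of the 42 cells with *Stat3*, those 13 made up 30.95%. *Jak2* and *Stat3* were both counted in 13 cells, which is 86.7% of the cells with *Jak2*. Over all 76 cells, *Stat3* was counted in 55.3%. The leptin receptor gene *Lepr* had a count in 10 cells, and all 10 of these held *Stat3*, 7 held *Socs3* and 6 held *Jak2*. Cells with a count of *Lepr* were also rich in genes in general, with a median of 5910 genes against 2582 in the other cells. So were cells with *Jak2*, with 5705 against 2425 genes, and cells with *Socs3*, with 5572 against 2548.

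*Ptpn1*, which encodes the phosphatase PTP1B, had its highest mean in Pomc+ neurons on HFD. There, 6 of 19 neurons had 3.17, 72, 92.5, 152.4, 255.6 and 658.4 CPM, a mean of 64.95 CPM over the group. In Ghost neurons on HFD, 3 of 19 had a count, at 61.96, 62.7 and 62.7 CPM, a mean of 9.86 CPM. Of the Pomc+ neurons, 5 lay above the highest Ghost neuron, and the other 14 did not, so the groups overlapped. On CD, 5 of 15 Ghost neurons had 13.7, 23.9, 144.3, 178.1 and 186.5 CPM and 4 of 23 Pomc+ neurons had 38.8, 51.5, 96.6 and 176.6 CPM. The means there were 36.4 and 15.8 CPM.

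The ratios of *Ptpn1* followed these few cells. The Ghost to Pomc+ ratio was 2.31 on CD and 0.152 on HFD, the HFD to CD ratio was 4.11 in Pomc+ and 0.271 in Ghost neurons, and each was past 2-fold. On HFD, the Ghost to Pomc+ ratio was 0.308 without the neuron at 658.4 CPM, which held 53.4% of the summed CPM of its group, and the HFD to CD ratio in Pomc+ neurons was then 2.02. On CD, the Ghost to Pomc+ ratio was 1.63 without the highest Ghost neuron and 0.871 in summed counts over summed totals, on the other side of 1. Cells with a count of *Ptpn1* had a median of 427.7 CPM of the 8 oligodendrocyte markers against 147.5 CPM in cells without, and the part of this in the level of *Ptpn1* was not tested.

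*Ptpn2*, which encodes the related phosphatase TCPTP, had similar means in all 4 groups in CPM but not in other scalings. They were 18.3 CPM in Ghost and 27.8 CPM in Pomc+ neurons on CD and 23.6 and 24.05 CPM on HFD, and no ratio between groups was past 2-fold. In the deposited normalized counts the means were 3.66 and 12.8 on CD and 8.89 and 15.6 on HFD, with a Ghost to Pomc+ ratio of 0.286 on CD and an HFD to CD ratio of 2.43 in Ghost neurons. In summed counts the Ghost to Pomc+ ratio on HFD was 2.24. The shares differed more, with 2 of 15 Ghost and 5 of 23 Pomc+ neurons on CD and 6 of 19 and 2 of 19 on HFD. The 2 Pomc+ neurons on HFD had 201.2 and 255.8 CPM, whereas the 6 Ghost neurons ranged from 2.62 to 183.7 CPM, all below them but with all other Pomc+ neurons at 0. In Ghost neurons on CD the counts came from 2 cells at 26.5 and 248.7 CPM, and without the higher cell the Ghost to Pomc+ ratio was 0.068 in place of 0.66 and the HFD to CD ratio 12.5 in place of 1.29. Of the 18 cells with *Ptpn1* and the 15 with *Ptpn2*, 5 held both.

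*Irs1*, a docking protein of the insulin receptor, had 37 counts in all. It had 9 counts in 1 Ghost neuron on CD (13.5 CPM) and 28 counts in 1 Pomc+ neuron on HFD (39.3 CPM). No count was found in the 23 Pomc+ neurons on CD, nor in the 19 Ghost neurons on HFD. With 3 counts as the limit, a count of 0 in the summed totals of these groups allows up to 0.292 and 0.325 CPM of summed counts, which covers the counting error of reads only and not the sampling of molecules. Both cells with *Irs1* also held *Irs2*.

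**Figure D2:**
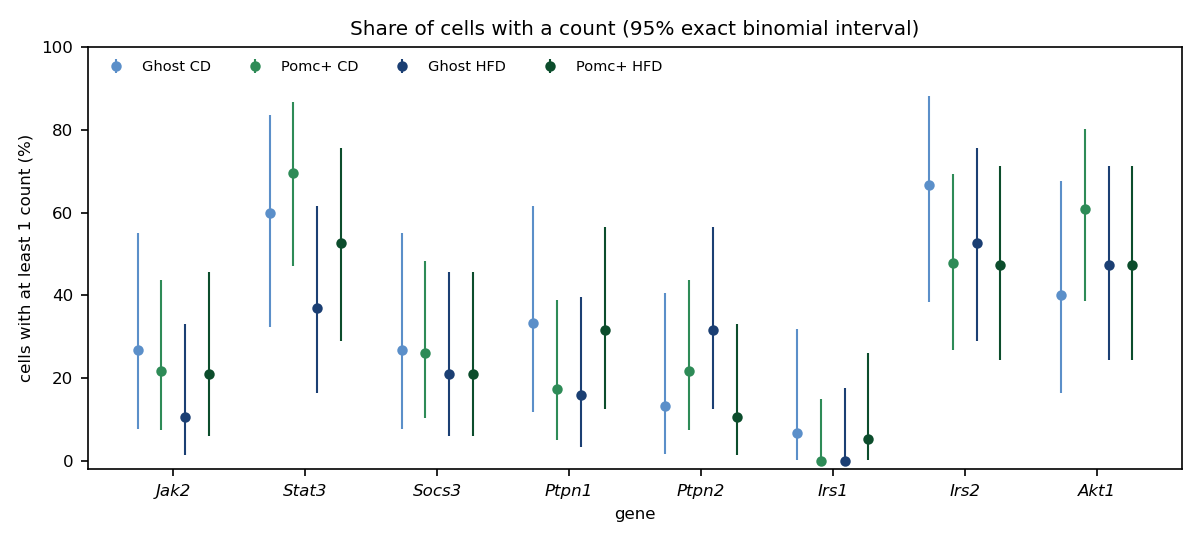
Share of cells with at least 1 count of each gene, in percent, for the 4 groups. Points are shares of 15, 23, 19 and 19 cells and bars are 95% exact binomial intervals, which cover counting error only. The 4 intervals of each gene overlap, and *Stat3*, *Irs2* and *Akt1* lie above the other genes, with 36.8% to 69.6% of cells.

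*Irs2*, the docking protein that was counted in 40 of the 76 cells, differed between labels in opposite directions on the diets. On CD it was higher in Ghost neurons, with a mean of 138.8 CPM against 33.9 CPM in Pomc+ neurons, a ratio of 4.09 that was 1.404 in the deposited normalized counts. On HFD it was lower in Ghost neurons, with 41.5 CPM against 115.9 CPM, a ratio of 0.358. Set against diet, *Irs2* on HFD was 3.42 times its CD level in Pomc+ neurons and 0.299 times its CD level in Ghost neurons.

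The cells behind these means were spread out. In the 10 of 15 Ghost neurons on CD with a count, *Irs2* was at 42.6, 66.2, 84.8, 101.1, 194.9, 246.8, 251, 252.6, 327.8 and 514.8 CPM. In the 11 of 23 Pomc+ neurons on CD with a count it ranged from 3.76 to 223.2 CPM with a median of 47.2 CPM. Of the Ghost neurons, 5 lay above the highest Pomc+ neuron and 5 were at 0, so the groups overlapped. The Ghost neurons at 246.8 and 252.6 CPM had only 7 counts of *Irs2* each, in totals of 28362 and 27715. On HFD, 10 of 19 Ghost neurons had a count, from 0.841 to 256.9 CPM with a median of 81.5 CPM. The 9 of 19 Pomc+ neurons with a count had 10.6, 26.8, 43.2, 165.6, 189.9, 238.1, 414.3, 527.9 and 584.9 CPM, and 3 lay above the highest Ghost neuron.

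The shares of cells with *Irs2* were closer than the levels, at 66.7% (38.4% to 88.2%) in Ghost and 47.8% (26.8% to 69.4%) in Pomc+ neurons on CD and at 52.6% (28.9% to 75.6%) and 47.4% (24.4% to 71.1%) on HFD. Among cells with a count, the mean was 208.3 CPM in Ghost against 70.9 CPM in Pomc+ neurons on CD and 78.8 CPM against 244.6 CPM on HFD. No single cell decided the direction. Leaving out 1 cell at a time gave Ghost to Pomc+ ratios of *Irs2* from 3.30 to 5.49 on CD and from 0.255 to 0.462 on HFD. The HFD to CD ratio then lay between 2.65 and 4.58 in Pomc+ and between 0.213 and 0.37 in Ghost neurons.

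*Akt1*, the kinase at the end of the insulin arm described here, was lower in Ghost than in Pomc+ neurons on CD. Its mean was 39.4 CPM in Ghost and 202.1 CPM in Pomc+ neurons, a ratio of 0.195. The 6 of 15 Ghost neurons with a count had 16.5, 36.1, 64.3, 70.6, 135.7 and 268.5 CPM. The 14 of 23 Pomc+ neurons with a count ranged from 16.3 to 853.5 CPM with a median of 203.9 CPM. Of the Pomc+ neurons, 6 lay above the highest Ghost neuron and 11 were above 100 CPM, compared with 2 Ghost neurons above 100 CPM, and the groups overlapped.

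On HFD, *Akt1* had a count in 9 of 19 neurons of each label (47.4%, 24.4% to 71.1%). The means were 45.2 CPM in Ghost and 72.4 CPM in Pomc+ neurons, a ratio of 0.624 that turned to 1.22 when the 7 genes seen in all cells were taken out of the totals. The highest values were 222.6 and 353.2 CPM. The level in Pomc+ neurons on HFD was 0.358 times that on CD, or 0.644 times in summed counts over summed totals, and 5 Pomc+ neurons on CD lay above the highest Pomc+ neuron on HFD. In Ghost neurons the diets gave a ratio of 1.15, which was 0.724 in normalized counts and 2.29 without the 7 genes, and which ranged from 0.896 to 1.958 with 1 cell left out. The lower value in Pomc+ neurons on HFD came mainly with lower values in cells with a count, whose mean was 152.9 CPM against 332.1 CPM on CD. Leaving out 1 cell at a time gave Ghost to Pomc+ ratios of *Akt1* on CD from 0.114 to 0.229.

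Because *Irs2* and *Akt1* differed in opposite directions on CD, their counts were also compared inside each cell, where no scaling between cells enters. This comparison was chosen after the values were seen. On CD, *Irs2* had more counts than *Akt1* in 7 of the 11 Ghost neurons that held either gene, and in 3 of the 16 such Pomc+ neurons. The summed counts were 700 for *Irs2* and 261 for *Akt1* in Ghost neurons and 626 and 1728 in Pomc+ neurons. Of the summed pair, *Irs2* thus took 72.8% and 26.6%. Sums weigh cells by their depth, and 1 Ghost neuron alone gave 344 of the 700 counts. *Irs2* was counted without *Akt1* in 5 Ghost and 2 Pomc+ neurons, and *Akt1* without *Irs2* in 1 and 5. On HFD, *Irs2* had more counts in 7 of 14 Ghost and in 6 of 11 Pomc+ neurons, and took 42.4% and 53.02% of the summed pair. Both genes were counted together in 26 cells, 65% of those with *Irs2* and 68.4% of those with *Akt1*.

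The labels number the cells, and these numbers form 8 runs of 1 diet each, whose meaning is not stated. Labels could be compared within runs, whereas diet and run cannot be told apart. Each of the 4 runs on CD held 3 or 4 Ghost neurons and between 3 and 8 Pomc+ neurons, and there the mean of *Akt1* was lower in Ghost neurons every time, with ratios of 0.28, 0.275, 0.305 and 0.042. In the same runs the mean of *Irs2* was higher in Ghost neurons every time, with ratios of 1.70, 2.68, 14.6 and 13.4. In the 4 runs on HFD, with 1 to 11 Ghost and 1 to 10 Pomc+ neurons, *Irs2* was lower in Ghost neurons every time, with ratios of 0.25, 0.558, 0.45 and 0.085. *Akt1* was lower in 2 of the HFD runs and higher in 2. Runs are not replicates, and the smallest hold 1 neuron of a label. In the HFD run with an *Irs2* ratio of 0.45, the only Pomc+ neuron had 2 counts of *Irs2* in a total of 10534. In the run with a ratio of 0.558, the only Ghost neuron had 108.9 CPM. Of its 3 Pomc+ neurons only 1 had a count, at 584.9 CPM, so the direction there rests on that neuron.

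**Figure D3:**
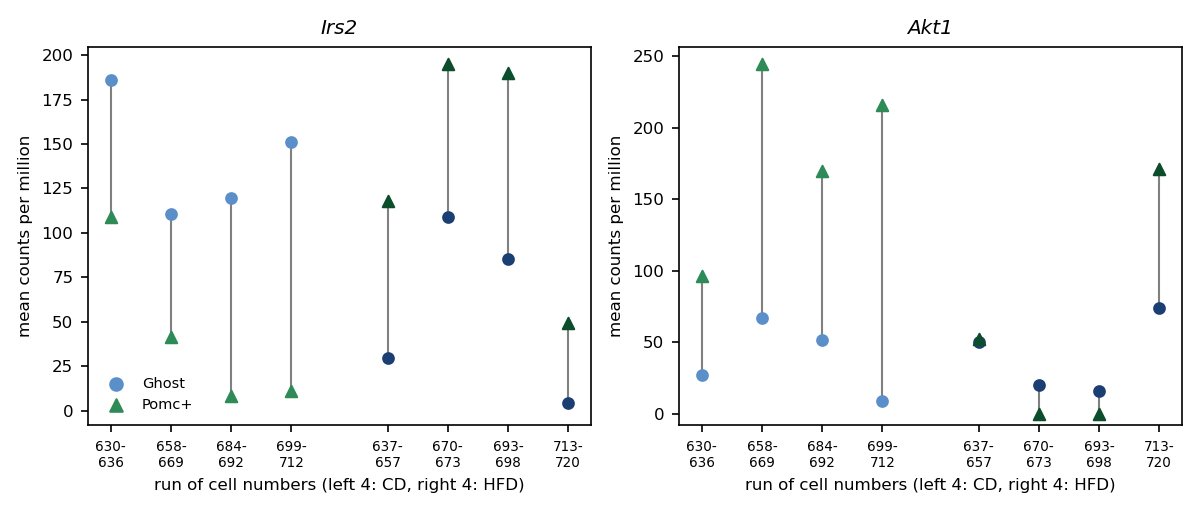
Mean CPM of *Irs2* (left) and *Akt1* (right) in Ghost (circles) and Pomc+ neurons (triangles) within each of 8 runs of cell numbers, 4 on CD and then 4 on HFD. Grey lines join the labels of 1 run. *Irs2* is higher in Ghost neurons in all 4 CD runs and lower in all 4 HFD runs, and *Akt1* is lower in Ghost neurons in all 4 CD runs. In the HFD run of cells 693 to 698, the Pomc+ point is 1 neuron with 2 counts of *Irs2*. In that of cells 670 to 673, the Ghost point is 1 neuron and only 1 of 3 Pomc+ neurons had a count of *Irs2*.

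Counted over the 7 members with enough counts, 3 were past 2-fold between labels on CD, with *Ptpn1* and *Irs2* higher and *Akt1* lower in Ghost neurons in CPM. In the deposited normalized counts 3 were past it too, but *Stat3*, *Ptpn2* and *Akt1*, all lower, at 0.425, 0.286 and 0.214, and in summed counts *Irs2* was higher and *Stat3* and *Akt1* lower. In CPM, of the 11992 genes with a ratio, 23.6% were past 2-fold higher and 31.8% past 2-fold lower in that comparison. On HFD, *Jak2*, *Ptpn1* and *Irs2* were past 2-fold lower in Ghost neurons and none was higher, against 34.2% and 21.4% of 12161 genes. All 7 members had a ratio below 1 on HFD in CPM, whereas 3 were above 1 when the 7 genes seen in all cells were taken out and 2 in summed counts. Comparing labels within runs of cell numbers also put 3 above 1, *Stat3* at 1.16, *Socs3* at 1.13 and *Ptpn2* at 1.11. Leaving out 1 Pomc+ neuron, a different one for each gene, took them to 1.13, 1.85 and 2.11. In CPM over all cells the median log2 ratio of the 7 members was -0.75, beside -0.27 over all genes, and on CD the medians were 0.45 and -0.18. With so large a share of genes past 2-fold, the counts of members are near the background and no result rests on them.

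Between diets, *Jak2*, *Socs3*, *Ptpn1* and *Irs2* were past 2-fold higher and *Akt1* past 2-fold lower on HFD in Pomc+ neurons in CPM. The share of all 12209 genes was 28.6% higher and 22.5% lower, and the median log2 ratio was 1.14 over the members and 0.12 over all genes. In summed counts *Jak2*, *Socs3* and *Akt1* were within 2-fold there, at 1.99, 1.10 and 0.644, and *Stat3* was past 2-fold lower at 0.464. *Jak2* was also within 2-fold in normalized counts, at 1.51. In Ghost neurons *Jak2*, *Ptpn1* and *Irs2* were past 2-fold lower on HFD and none was higher, against 28.2% lower and 30.2% higher of 11907 genes. The medians were -0.22 and 0.01. In normalized counts *Ptpn2* was past 2-fold higher at 2.43 and *Jak2* was within 2-fold at 0.536, and without the 7 genes *Akt1* was higher at 2.29 and *Ptpn1* within at 0.53. *Irs2* and *Ptpn1* were thus past 2-fold in each of the 4 comparisons in CPM, which share groups and are not independent of each other.

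**Figure D4:**
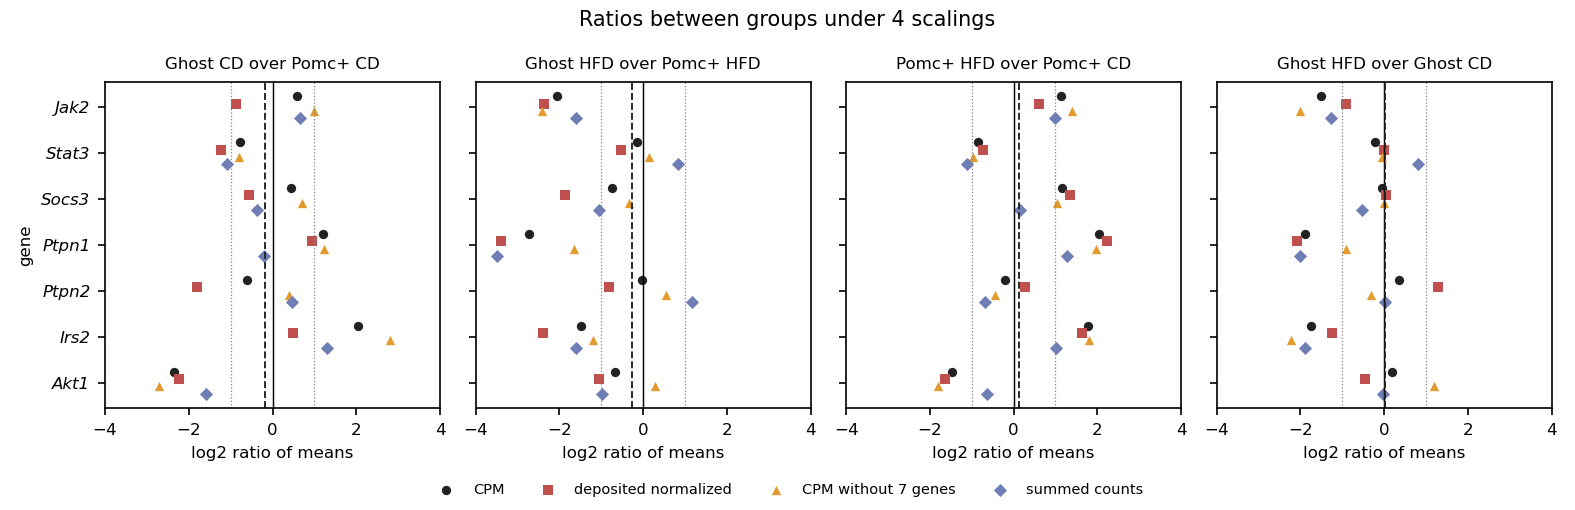
Log2 ratio of group means of the 7 members with enough counts, for the 4 comparisons and 4 ways of scaling (circles CPM, squares deposited normalized counts, triangles CPM after removal of 7 genes that all cells had, diamonds summed counts over summed totals). Dotted lines mark 2-fold and the dashed line is the median of all genes in CPM. *Akt1* on CD lies left of -1 and *Irs2* right of 0 under all 4 scalings, and *Irs2* on HFD lies left of -1.

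The scaling of the cells bears on the size of these ratios. The deposited normalized counts put the median log2 ratio of all genes at -0.85 for Ghost to Pomc+ neurons on CD. The log2 ratio of *Irs2* was then 0.49, which is 1.34 relative to that median, and that of *Akt1* -2.23, which is -1.37 relative to it. In CPM, the same distances were 2.22 and -2.17. In normalized counts, 14.9% of all genes were past 2-fold higher and 46.4% lower in Ghost neurons on CD, and in the HFD to CD comparison of Ghost neurons 36.2% higher and 21.5% lower. In summed counts the shares were 14.4% and 40.1% on CD, 20.7% higher and 29.4% lower for HFD to CD in Pomc+ neurons and 34.7% and 21.3% in Ghost neurons. For *Jak2* and *Socs3* on CD the direction turned, with log2 ratios of 0.58 and 0.45 in CPM and of -0.86 and -0.57 in normalized counts. For *Ptpn2* on CD it was -0.60 in CPM and 0.46 in summed counts.

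Between 0 and 7 of the 8 genes were counted in a single cell, with a median of 2 in each group. None was counted in 16 cells and 4 or more in 23 cells. The cells with 0 had a median of 1529 genes with a count and those with 4 or more had 6102. Across the 76 cells, Spearman's rho between the number of members and the number of genes counted was 0.78, a description of cells that share these groups and the depth of their libraries. The cells with 7 of the members were 1 Pomc+ neuron on CD with 9041 genes and 1 on HFD with 9144.

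**Figure D5:**
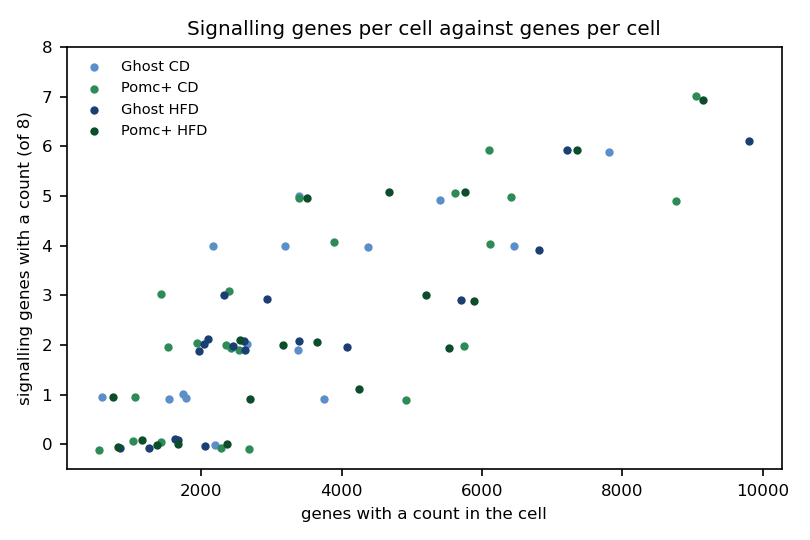
Number of the 8 signalling genes with a count in each cell (vertical axis, with a small random offset) against the number of genes with a count in that cell (horizontal axis), coloured by group. Cells with more genes held more of the signalling genes, with a Spearman rho of 0.78 over 76 cells, and the 4 groups lie over each other.

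Equal depth kept the order of labels in the shares of *Stat3* and *Irs2* on each diet and of *Akt1* on CD. In the 68 cells with at least 40000 counts, thinned to that number, *Akt1* was expected in 4.37 of 12 Ghost and 12.4 of 21 Pomc+ neurons on CD, and *Irs2* in 7.73 and 8.66 of them. On HFD, *Akt1* was expected in 7.46 of 17 Ghost and 7.65 of 18 Pomc+ neurons and *Irs2* in 7.57 and 6.88. *Stat3* was expected in 6.26 and 14.4 neurons on CD and in 6.78 and 8.92 on HFD.

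Levels of *Stat3*, *Irs2* and *Akt1* were weakly related to each other over the 76 cells. Spearman's rho of CPM was 0.33 for *Stat3* and *Irs2*, 0.32 for *Stat3* and *Akt1* and 0.14 for *Irs2* and *Akt1*. The genes whose CPM was most like that of *Stat3*, among 4983 genes counted in at least 20 cells, were *Dazap1*, *Kif21a* and *Kif2a*, with rho of 0.62, 0.60 and 0.59. For *Irs2* they were *Brd8*, *Aqr* and *Tcea2*, with 0.62, 0.57 and 0.56, and for *Akt1* they were *Ccdc115*, *Dlat* and *Nutf2*, with 0.59, 0.58 and 0.56. The cells share depth here too, and *Stat3* itself had a rho of 0.60 with the number of genes counted, *Irs2* of 0.53 and *Akt1* of 0.38.

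Around the members, 49 further genes of the pathway were listed by role, and 44 of them had enough counts. Past 2-fold between labels on CD were 10 higher and 14 lower in Ghost neurons, beside 23.6% and 31.8% of all genes, with a median log2 ratio of 0.11. On HFD 9 were higher and 14 lower, beside 21.4% and 34.2%, with a median of -0.47. In Pomc+ neurons 8 were higher and 11 lower on HFD than on CD, beside 28.6% and 22.5%, and in Ghost neurons 10 and 13, beside 30.2% and 28.2%. These counts are near the background. The insulin receptor gene *Insr* was counted in 19 cells, of which 15 also held *Irs2* and 13 *Akt1*. Its mean was 35.9 CPM in Ghost and 15.5 CPM in Pomc+ neurons on CD, and 18.2 and 18.1 CPM on HFD. The ratios of *Insr* were 2.31 and 1.01 in CPM and 0.954 and 0.437 in the deposited normalized counts, on the other side of 1. *Lepr* had means of 17.8 and 19.6 CPM on CD and 1.29 and 3.25 CPM on HFD, from 3, 4, 1 and 2 cells.

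The listed genes with the highest and lowest Ghost to Pomc+ ratios over both diets came mostly from the mTOR branch, in which complex 1 acts below AKT and complex 2 phosphorylates AKT itself. Of the 26 counted in at least 20 cells, *Mtor*, the kinase itself, was highest at 53.5 CPM in Ghost and 13.1 CPM in Pomc+ neurons, a ratio of 4.08, which was 3.14 on CD and 6.19 on HFD. *Rptor*, the scaffold of complex 1, followed with a ratio of 2.83, but its diets had opposite directions, at 0.484 on CD and 5.72 on HFD. The kinase gene *Gsk3b* had 2.61, from 1.98 and 3.22. Lowest were *Rps6kb1*, which encodes the S6 kinase, with a ratio of 0.427, the inhibitor *Tsc2* with 0.473 and *Rictor*, the scaffold of complex 2, with 0.516. On CD and HFD they were 0.238 and 0.502 for *Rps6kb1*, 0.75 and 0.307 for *Tsc2* and 0.166 and 0.71 for *Rictor*. *Akt1* had a ratio of 0.297 over both diets, below all 26.

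The kit does not mark the strand, so reads of overlapping genes cannot be told apart. *Stat3*, *Irs1* and *Irs2* each overlap 1 gene on the opposite strand in GENCODE M21. The partner of *Stat3*, *Stat5a*, had 153 counts in 7 cells against 5432 of *Stat3*, and the partner of *Irs2* had 29 counts in 3 cells against 2757.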

How the data were processed

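Patch-seq libraries of 76 neurons were analysed from the tables the authors deposited. The raw table holds the count of each of 56980 genes in each cell, and the normalized table holds a signal, which the authors made by dividing the count by 1 size factor per cell. The submitters' processing notes name cutadapt 2.10, STAR 2.7.5a, DESeq2 and the builds mm10 and GRCm38, without a counting program. Symbols matched 52073 identifiers. CPM, exact Clopper-Pearson intervals at 95% and ratios of means (Ghost over Pomc+, HFD over CD) were computed with Python 3.11.15, numpy 2.4.6, pandas 2.3.3 and scipy 1.17.1, after testing on simulated data. Low counts were filtered at 5 counts in 3 cells. A group with no count was set at 3 counts over its summed total. Each group is 1 sample, so no p-value or standard error was made from cells. Every library is 1 hand-patched cell, so there are no shared barcodes, and no doublet caller was run.

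The members and the lists were chosen with earlier results of these data known. Named genes are all members, *Lepr* and *Insr*, the 3 highest and 3 lowest pathway genes by Ghost to Pomc+ ratio among those in at least 20 cells, and the 3 genes most like each member in at least 20 cells. Further genes in the closing section were chosen after their values were seen. Marker lists covered astrocytes, microglia, oligodendrocytes, endothelial and mural cells, tanycytes and ependymal cells, neurons and *Pomc* neurons. Of the 7 *Pomc* neuron markers at least 1 had a count in 75 cells. Alternatives were the deposited normalized counts, CPM after removal of 7 genes that all cells had (43.7% of counts), summed counts, the 71 cells with 1000 or more genes and no more than 20% of mitochondrial counts, no low-count filter, a 1.5-fold threshold, thinning, at least 5 counts and leaving out each cell.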

Additional observations from a re-analysis of the deposited data

Results flagged for a closer look

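The Ghost to Pomc+ ratio of mean CPM of *Irs2* had opposite directions on the diets, 4.09 on CD and 0.358 on HFD. It was above 1 in all 4 runs of cell numbers on CD and below 1 in all 4 runs on HFD, and *Irs2* was the member for which this held in every run. Whether the diets differ in this was not tested, since the labels name no mouse and runs are not replicates. In 1 of the HFD runs the only Pomc+ neuron had 2 counts of *Irs2* in a total of 10534. In another, with 1 Ghost neuron, only 1 of 3 Pomc+ neurons had a count of *Irs2*, and the direction rests on it.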

How the results depend on the processing

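The count of members past 2-fold between labels on CD was 3, with 2 higher and 1 lower, and became 5 at 1.5-fold. It was 3 as well in the deposited normalized counts, with 0 higher and 3 lower, and in summed counts over summed totals, with 1 higher and 2 lower, so the members differed where the count did not. On HFD it was 3, all lower, and became 5 in normalized counts, all lower, 5 in summed counts, with 1 higher, and 5 at 1.5-fold, all lower. Between diets in Pomc+ neurons it was 5 and became 3 in summed counts, with *Stat3* in place of *Akt1* as the lower member. In Ghost neurons it was 3 and stayed within 1.5 times under every setting run. There, 1 was higher and 2 lower in normalized counts and without the 7 genes seen in all cells, against 0 and 3 in CPM. With 1 cell left out at a time, the count ranged from 2 to 4 between labels on CD, from 3 to 5 on HFD, from 4 to 6 between diets in Pomc+ neurons and from 2 to 4 in Ghost neurons. Among called ratios, that of *Ptpn1* between labels on CD reversed to 0.871 in summed counts, and that of *Socs3* between diets in Pomc+ neurons to 0.712 without 1 neuron, in a range of 0.712 to 4.53. Leaving out 1 neuron also took ratios within 2-fold past it. That of *Stat3* ranged from 0.47 to 0.781 between labels on CD and from 0.444 to 0.748 between diets in Pomc+ neurons, and that of *Akt1* from 0.488 to 0.795 between labels on HFD. With 1 cell left out, the following ranges also lay on both sides of 1. Between labels on CD they were 0.592 to 5.83 for *Jak2*, 0.77 to 2.79 for *Socs3* and 0.068 to 1.11 for *Ptpn2*. Between labels on HFD they were 0.598 to 1.13 for *Stat3*, 0.386 to 1.85 for *Socs3* and 0.611 to 2.11 for *Ptpn2*. Between diets in Pomc+ neurons, *Ptpn2* ranged from 0.402 to 1.46. Between diets in Ghost neurons, *Stat3* ranged from 0.573 to 1.07 and *Socs3* from 0.627 to 1.71. *Ptpn2* there ranged from 0.801 to 12.5 and *Akt1* from 0.896 to 1.958. Within runs of cell numbers, added after the data were seen, *Irs2* had ratios of 3.65 on CD and 0.328 on HFD and *Akt1* of 0.211 on CD, whereas on HFD *Stat3* went from 0.899 to 1.16, *Socs3* from 0.595 to 1.13 and *Ptpn2* from 0.981 to 1.11. All shares stayed within their intervals when cells were thinned, filtered or required to have 5 counts. The cause of these shifts was not tested. No paired analysis was possible because the labels number single cells and give groups no shared replicate, and the runs, which are not replicates, gave a comparison of labels within runs without a test. Genes with few reads, such as *Irs1*, cannot be compared at this depth, and few cells carry each mean.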

Other observations

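Relatives of the members added context on which gene of a family these neurons held. *Jak1*, a kinase related to *Jak2*, had a count in 36 cells with a mean of 93.8 CPM, whereas *Jak2* had one in 15 cells. *Stat5b*, another STAT factor, was counted in 27 cells, and its mean on CD was 78.2 CPM in Ghost and 17.5 CPM in Pomc+ neurons. On HFD its means were 79.7 and 48.2 CPM. *Akt2* was counted in 9 cells, compared with 38 for *Akt1*.

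*Foxo1*, a transcription factor that AKT holds out of the nucleus, had a count in 7 of 23 Pomc+ and 0 of 15 Ghost neurons on CD, in which 3 counts as the limit allow up to 0.639 CPM of summed counts. On HFD it was counted in 3 of 19 Pomc+ neurons and 1 of 19 Ghost neurons. The median total on CD was lower in Ghost neurons, at 123528 counts against 339691. *Foxo1* was chosen after its values were seen, and the part of depth in its shares was not tested.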
